A study of Mus musculus with 2 samples.

Results

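The 9 genes reported here were Fgf21, Gdf15, Ddit3, Atf3, Atf4, Trib3, Chac1, Hspa5 and Xbp1, which act in the integrated stress response and the unfolded protein response or encode hormones that the liver secretes under stress. They came from a named list and not from a ranking of the counts, and were 9 of 19059 genes in the matrices, of which 15999 had a count. In the integrated stress response, kinases phosphorylate the initiation factor eIF2, which lowers general translation and raises translation of Atf4 mRNA. ATF4 acts with CHOP (the product of Ddit3) and ATF3 on genes such as Trib3, Chac1, Fgf21 and Gdf15. The unfolded protein response of the endoplasmic reticulum combines the eIF2 kinase PERK with IRE1, which splices Xbp1 mRNA, and ATF6, which acts on the chaperone gene Hspa5. Counts per gene measure neither splicing nor translation.

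Liver cells were profiled with probes hybridised to fixed RNA, in 1 library per genotype. AEG-1 ΔMAC mice carry a floxed AEG-1 gene (symbol Mtdh) and a Cre recombinase under LysM (Lyz2) control, which deletes the floxed gene in myeloid cells, and AEG-1 fl/fl mice are the floxed controls. Both groups were fed a high-fat, high-sugar diet (HF/HSD) from 7 weeks of age for 20 weeks, to an age of 27 weeks. Whether a library pooled several livers is not stated, and with 1 library per group no difference between the libraries has a replicate check. The library labelled AEG-1 ΔMAC held 79589511 counts in 2581 cells, with a median of 12742 counts per cell. The library labelled AEG-1 fl/fl held 90440089 counts in 3535 cells, with a median of 7686. After removal of cells above 10% mitochondrial counts, 2571 and 3508 cells were kept. The libraries shared 10 barcodes.

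The targeted gene went against the labels. Mtdh (chr15:34082694-34145624, GRCm38) was at 105 CPM (counts scaled to a fixed total per class) in macrophages labelled AEG-1 ΔMAC and at 33.1 CPM in macrophages labelled AEG-1 fl/fl, from 481 and 282 counts. The log2 ratio of the former over the latter was 1.67 (95% interval 1.45 to 1.89). In macrophages of at most 16000 counts the levels were 117 and 25.3 CPM. Macrophages were also split by hepatocyte-marker counts, at a limit chosen after the data were seen and given below. With less hepatocyte RNA, Mtdh was at 154 CPM in macrophages labelled AEG-1 ΔMAC and at 20.9 CPM in those labelled AEG-1 fl/fl. With more hepatocyte RNA, the levels in the same order were 90.5 and 45.4 CPM. Hepatocytes held 62.3 and 58.3 CPM of Mtdh, so within each library the macrophage level lay on a different side of the hepatocyte level. A probe outside the deleted exons would still count transcripts of a deleted allele. The positions of the probes were not examined, and their part in the Mtdh levels was not tested. Lyz2 was at 1184 and 1001 CPM in macrophages of the libraries in the same order. Groups are therefore named throughout by the label of the library, ΔMAC-labelled or fl/fl-labelled, and each direction between the libraries refers to these labels. Which library carries the deletion was not tested. Pairs of values below give the ΔMAC-labelled library first.

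Cells were assigned to classes by marker gates whose limits were set once the counts had been seen, and no doublets were called or removed. Cells past 2 gates numbered 219 and 402. Hepatocytes, which passed no gate and held at least 8000 counts, numbered 1131 and 1076, with medians of 30555 and 32306 counts. There were 367 and 853 macrophages (medians 5985 and 5693 counts), 413 and 464 endothelial cells, 280 and 403 stellate cells and 33 and 103 cholangiocytes. Macrophages were 14.3% and 24.3% of the kept cells, and summed stellate markers were at 9109 and 15818 CPM in stellate cells. The 10 genes that most set a class apart held 6 of its own markers for macrophages, 3 for endothelial cells, 4 for stellate cells and 4 for cholangiocytes, but 0 for hepatocytes, whose markers were abundant in each class. Of the hepatocytes, 959 and 924 lay under 0.5 of each gate, and 45 and 62 held fewer than 400 hepatocyte-marker counts per 10000. A class level is the CPM of the summed counts, and its 95% Poisson interval covers counting error only. Levels were compared within a gene and never between genes, since each probe has its own efficiency. Taken as the median of 10 genes, hepatocyte markers reached 58.8% and 41.6% of their hepatocyte level in macrophages, 72.8% and 55.2% in endothelial cells and 68.7% and 62.0% in stellate cells. The level that this hepatocyte RNA would give for a gene is named below as the hepatocyte RNA level, and its part in the nonparenchymal values was not tested. It takes the same share for each gene, so it can be too high, and subtracting it can remove too much. The hepatocyte gene Mlxipl was at 184 and 125 CPM in macrophages, beside a hepatocyte RNA level of 397.5 and 186 CPM. Ppara was at 122 and 104 CPM there, beside 183 and 128 CPM. Inhbe was at 56.0 and 55.3 CPM, beside 73.7 and 72.4 CPM, and Klb at 10.1 and 7.85 CPM, beside 13.9 and 11.1 CPM. Of the macrophages, 49 and 72 lay under 1.5 times their gate, and 89 and 109 cells of other classes lay above 0.75 of it.

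Levels by cell class addressed which liver cells carry each transcript. With all cells counted, 2 of the 9 genes, Trib3 and Chac1, had their highest level in hepatocytes in both libraries, beside 8.4% of 12279 genes, among classes of at least 100000 counts in each library. Without the cell that held most counts of the gene in each class, 4 genes did, namely Fgf21, Gdf15, Trib3 and Chac1, beside 10.8% of genes. With hepatocyte RNA subtracted from the other classes, 6 genes did, with Hspa5 and Xbp1 as well, beside 18.5% of genes. Which genes ranked highest in hepatocytes therefore rested on single cells for the hepatokines.

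Fgf21 (ENSMUSG00000030827, chr7:45613886-45615490, minus strand), which encodes a fasting and stress hormone, was at 27.9 CPM (26.6 to 29.2) and 59.4 CPM (57.6 to 61.3) in hepatocytes. In the ΔMAC-labelled library the other classes lay lower, from 17.7 CPM in stellate cells to 12.9 CPM in macrophages, and their intervals overlapped each other. The fl/fl-labelled library had 72.5 CPM in stellate cells, above hepatocytes, but 1 stellate cell of 129819 counts held 235 of the 433 counts, and without it the level was 33.9 CPM. Endothelial cells there held 31.7 CPM and macrophages 13.7 CPM, and 1 macrophage of 147416 counts held 39 of 117 counts, without which macrophages were at 9.30 CPM. The hepatocyte RNA level was 16.4 and 24.7 CPM in macrophages, 20.3 and 32.8 CPM in endothelial cells and 19.2 and 36.9 CPM in stellate cells, so with the single cells set aside Fgf21 in these classes was at or below that level. Thinned to 8000 counts per cell, Fgf21 had a count in 17.8% and 25.5% of hepatocytes (46.9% and 52.2% unthinned). The share in macrophages was 8.83% and 4.93% of the 128 and 279 cells deep enough, with 239 and 574 shallower cells left out.

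Gdf15 (ENSMUSG00000038508, chr8:70629393-70632456, minus strand) encodes a stress hormone that acts on the brainstem. Its hepatocyte level was 94.9 CPM (92.5 to 97.3) and 130.2 CPM (127 to 133). Macrophages held 70.8 and 70.9 CPM, close to equal between the libraries, and 51.9 and 59.2 CPM without the cell with most Gdf15 in each, beside a hepatocyte RNA level of 55.8 and 54.2 CPM. In the fl/fl-labelled library the intervals of endothelial cells (76.4 CPM), stellate cells (73.1 CPM), cholangiocytes (72.6 CPM) and macrophages overlapped below hepatocytes. The ΔMAC-labelled cholangiocytes were at 95.6 CPM, of which 1 cell held 38 of 44 counts, and without it the level was 14.0 CPM. In the 141 and 522 macrophages with fewer than 400 hepatocyte-marker counts per 10000, where hepatocyte markers were at 16.8% and 12.1% of their hepatocyte level, Gdf15 was at 118.9 and 52.5 CPM, or 36.8 and 46.8 CPM without the top cells. These cells were chosen, after the data were seen, for few hepatocyte-marker counts, so the marker shares are low by that choice. Fgf21 in the same cells was at 2.83 and 6.74 CPM, from 3 and 29 counts.

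Among the transcription factors, Ddit3 (ENSMUSG00000025408, chr10:127290774-127296288, plus strand), which encodes CHOP, was higher in macrophages than in hepatocytes in both libraries. Macrophages held 29.3 CPM (24.5 to 34.7) and 43.5 CPM (39.2 to 48.2), and hepatocytes 21.4 CPM (20.2 to 22.5) and 18.8 CPM (17.7 to 19.8). The macrophage values exceeded the hepatocyte RNA level of 12.6 and 7.81 CPM. Stellate cells were at 22.2 and 29.1 CPM, with intervals that overlapped those of cholangiocytes at 32.6 and 32.7 CPM.

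Atf3 (ENSMUSG00000026628, chr1:191170296-191218039, minus strand), an early stress-induced factor, had its highest level in macrophages of both libraries, at 75.2 CPM (67.5 to 83.6) and 175 CPM (166 to 184). Hepatocytes held 13.2 and 14.8 CPM, and the hepatocyte RNA level in macrophages was 7.77 and 6.15 CPM. A single ΔMAC-labelled macrophage of 26398 counts held 107 of the 344 counts, and the same cell held 88 of the 324 Gdf15 counts. Without the top cell of each library the macrophage levels were 52.1 and 166 CPM, still above the other classes. Thinned to 8000 counts, Atf3 had a count in 22.0% and 47.0% of the 128 and 279 macrophages deep enough and in 8.09% and 9.17% of hepatocytes. Unthinned, it had a count in 24.0% and 38.3% of the 367 and 853 macrophages, a larger set that includes the shallow cells, and in 26.8% and 28.5% of hepatocytes. Stellate cells (19.0 and 25.3 CPM) and endothelial cells (13.2 and 21.4 CPM) had overlapping intervals in each library. Cholangiocytes had 0 counts in the ΔMAC-labelled library, with an interval up to 8.01 CPM, and 12.6 CPM in the other. In hepatocytes the top 1% of cells (11 cells) held 37.5% and 30.5% of Atf3 counts, against 15.3% and 15.6% of Fgf21 counts and 7.54% and 8.07% of Xbp1 counts, so Atf3 counts were more concentrated in few hepatocytes than those of Fgf21 or Xbp1.

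Atf4 (ENSMUSG00000042406, chr15:80255184-80257541, plus strand), the central factor of the response, differed less between hepatocytes and macrophages than between hepatocytes and cholangiocytes. Hepatocytes were at 13.4 and 17.5 CPM, macrophages at 13.1 and 21.3 CPM, and the intervals of neighbouring classes overlapped throughout. Between classes further apart, ΔMAC-labelled stellate cells (19.6 CPM) and cholangiocytes of both libraries (28.2 and 29.1 CPM) lay above hepatocytes.

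Trib3 (ENSMUSG00000032715, chr2:152337422-152344032, minus strand), which encodes a pseudokinase induced by ATF4 and CHOP, was at 20.6 and 19.9 CPM in hepatocytes and lowest in macrophages, at 13.6 and 8.67 CPM. The hepatocyte interval (19.5 to 21.8 and 18.8 to 21.0 CPM) lay above the macrophage interval in both libraries and overlapped that of stellate cells. Chac1 (ENSMUSG00000027313, chr2:119351229-119354381, plus strand), which encodes an enzyme that degrades glutathione, was at 25.7 and 23.8 CPM in hepatocytes against 10.3 and 9.03 CPM in macrophages. Endothelial cells held 20.6 and 19.9 CPM of Chac1, with intervals that met those of hepatocytes. For both genes the macrophage value was near the hepatocyte RNA level, 12.1 and 8.28 CPM for Trib3 and 15.1 and 9.90 CPM for Chac1.

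The genes of the endoplasmic reticulum differed little between hepatocytes, macrophages, endothelial cells, stellate cells and cholangiocytes. Hspa5 (ENSMUSG00000026864, chr2:34771970-34777547, plus strand), which encodes the chaperone BiP, was at 206 and 206 CPM in hepatocytes and at 207 and 237 CPM in macrophages. Only in the fl/fl-labelled library did the macrophage interval (227 to 248 CPM) lie above those of the 4 other classes named. Xbp1 (ENSMUSG00000020484, chr11:5520659-5525893, plus strand), which encodes the factor made by IRE1 splicing, was at 337 and 364 CPM in hepatocytes and at 291 and 292 CPM in macrophages. The intervals of hepatocytes, stellate cells (344 and 384 CPM) and, in the ΔMAC-labelled library, cholangiocytes (337 CPM) overlapped. Outside these classes Xbp1 was lower in T and NK cells (248 and 179 CPM) and B cells (239 and 184 CPM). In the 38 fl/fl-labelled dendritic cells it was at 467 CPM.

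**Figure D1:**
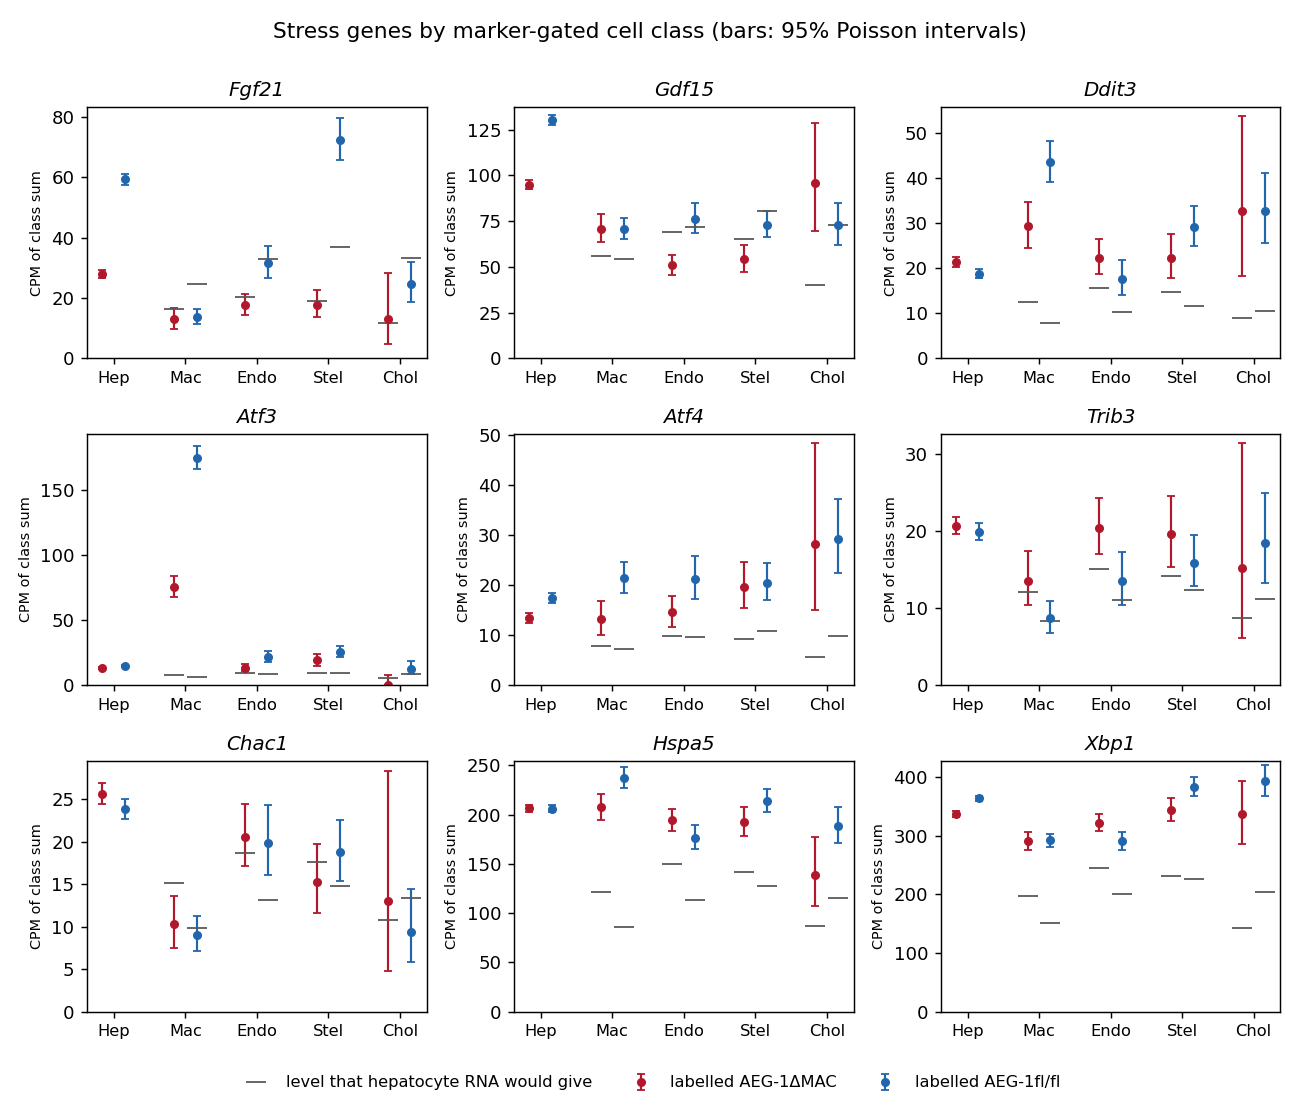
Level of each gene (CPM of the summed counts of a class) in hepatocytes (Hep), macrophages (Mac), endothelial cells (Endo), stellate cells (Stel) and cholangiocytes (Chol) of the ΔMAC-labelled (red) and fl/fl-labelled (blue) library, with 95% Poisson intervals and grey dashes at the level that hepatocyte RNA would give. Atf3 was highest in macrophages, at 75.2 and 175 CPM, and the high stellate Fgf21 level of 72.5 CPM rested on 1 cell.

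Hepatocytes of 8000 to 60000 counts (802 and 732 cells) and of more than 60000 counts (329 and 344 cells) were compared within each library, which asked whether the stress genes track the total count of a cell. No gene of the 9 was past 2-fold the same way in both libraries, beside 0% of 10104 genes higher and 0.188% lower in the deeper range. The median log2 ratio of the 9 genes was -0.44 and -0.19, beside -0.20 and -0.16 for all genes, and median-ratio scaling removes the latter shift. Fgf21 was at 33.8 CPM in the shallower and 25.0 CPM in the deeper range of the ΔMAC-labelled library, and at 77.0 and 52.7 CPM in the fl/fl-labelled library. Gdf15 went from 135 to 75.7 CPM and from 158 to 119.7 CPM (log2 -0.83 and -0.40). Ddit3 went from 25.2 to 19.5 CPM and from 22.3 to 17.4 CPM. These 3 genes were lower in deeper hepatocytes under each of the 8 alternatives, and their ratios exceeded the shift of all genes. Atf3 was at 24.1 and 7.96 CPM in the ΔMAC-labelled library (log2 -1.60, -1.80 to -1.40), or 19.6 and 7.39 CPM without the top cell of each range, and at 17.9 and 13.6 CPM in the other (log2 -0.39).

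Hspa5 went the other way, from 167 to 225 CPM and from 166 to 221 CPM (log2 0.43 and 0.41), with the same sign in the 8 alternatives. Xbp1 went from 329 to 341 CPM and from 322 to 380.0 CPM. Chac1 went from 32.8 to 22.2 CPM and from 26.1 to 22.9 CPM, and Atf4 from 16.3 to 11.97 CPM and from 19.1 to 16.8 CPM. Trib3 (21.7 to 20.1 CPM and 18.8 to 20.3 CPM) had intervals of the ratio that included 0 in both libraries. Hspa5 and the pair Fgf21 and Gdf15 thus differed in opposite directions with total count. The 22 IRE1-XBP1 and ATF6 targets with enough counts had medians of 0.10 and 0.07 and went both ways, with 16 above and 5 below 0 in both libraries. Summed hepatocyte markers also differed, at 106210 against 126080 CPM and 103390 against 120170 CPM.

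Zones were set within each library and range by tertiles of pericentral against periportal markers, and 164 and 140 shallower and 67 and 78 deeper hepatocytes lay within 0.05 of a limit. In the shallower range no member was past 2-fold in both libraries, beside 1.03% of 7985 genes higher and 0.601% lower pericentrally. Fgf21 was at 38.3 CPM pericentrally and 24.2 CPM periportally in the ΔMAC-labelled library (log2 0.66), and at 84.7 and 65.6 CPM in the fl/fl-labelled library (log2 0.37). In the latter 1 periportal cell held 108 counts, and without it the periportal level was 47.5 CPM, whereas the zone markers listed by the study alone gave a log2 ratio of -0.09. Gdf15 was at 135 against 111 CPM and 141 against 118 CPM (log2 0.28 and 0.26), with a sign that changed when each cell had equal weight in the ΔMAC-labelled library (-0.02) and with the study's markers in the other (-0.22). Gdf15 was highest between these zones, at 158 and 212 CPM, whereas Fgf21 was there at 38.9 and 80.0 CPM. Neither hepatokine thus kept its direction in shallower cells under each choice. Ddit3 was higher periportally in both libraries, at 28.4 against 19.7 CPM and 27.4 against 20.2 CPM (log2 -0.53 and -0.44). The sign of the Ddit3 ratio was the same in the 7 alternatives, but in deeper cells Ddit3 was at 19.2 against 20.8 CPM and 18.0 against 17.8 CPM (log2 0.11 and -0.01) and did not differ beyond counting error. Atf3 was at 33.7 CPM periportally and 18.0 CPM pericentrally in the ΔMAC-labelled library, but 1 cell held 92 of the 231 periportal counts, and the level without it was 20.3 CPM. In the fl/fl-labelled library Atf3 was at 13.8 and 10.3 CPM, with an interval of the ratio that included 0, and at 29.3 CPM between the zones. The median log2 ratio of the 9 genes was 0.08 and -0.08, beside 0.21 and 0.11 for all genes, so the members were not shifted pericentrally as a group.

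Among hepatocytes of more than 60000 counts, no member was past 2-fold in both libraries either, beside 1.58% of 9119 genes higher and 0.735% lower pericentrally. Fgf21 was at 38.5 CPM pericentrally, 23.6 CPM between the zones and 14.4 CPM periportally in the ΔMAC-labelled library, a log2 ratio of 1.42 (1.19 to 1.66). In the fl/fl-labelled library it was at 70.1, 53.5 and 38.2 CPM, a log2 ratio of 0.88 (0.74 to 1.01). Gdf15 had the same order, at 94.6, 79.0 and 56.0 CPM (log2 0.75) and at 155, 136 and 79.2 CPM (log2 0.97). The pericentral side was higher for both hepatokines under each of the 7 alternatives in this range. Summed hepatocyte markers were at 100160 CPM pericentrally against 157240 CPM periportally and 97770 against 142510 CPM, and the median mitochondrial share was 3.45% against 2.81% and 3.12% against 2.67%, and their part in the result was not tested. The median of the 9 genes was 0.20 and 0.13, beside 0.19 and 0.16 for all genes, so this direction was held by single members. Atf4 was at 14.7 against 10.3 CPM and 18.3 against 13.3 CPM (log2 0.51 and 0.46). Atf3 was at 9.76 against 5.47 CPM (log2 0.84), and in the fl/fl-labelled library at 11.9 against 11.1 CPM, where 2 of 7 alternatives had the other sign. Hspa5 was at 231 against 228 CPM and 231 against 212 CPM, and Xbp1 at 354 against 330.2 CPM and 380.2 against 389 CPM, so the endoplasmic reticulum genes showed no shared zone difference. Of the other stress lists, the hepatokine gene Lect2 was past 2-fold in both ranges, at 380 against 37.9 CPM and 230 against 45.1 CPM in deeper cells. The heat shock gene Hspb1 was as well, at 102 against 30.3 CPM and 94.2 against 27.0 CPM, and Hspa1b in deeper cells, at 13.6 against 5.40 CPM and 23.1 against 7.66 CPM.

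**Figure D2:**
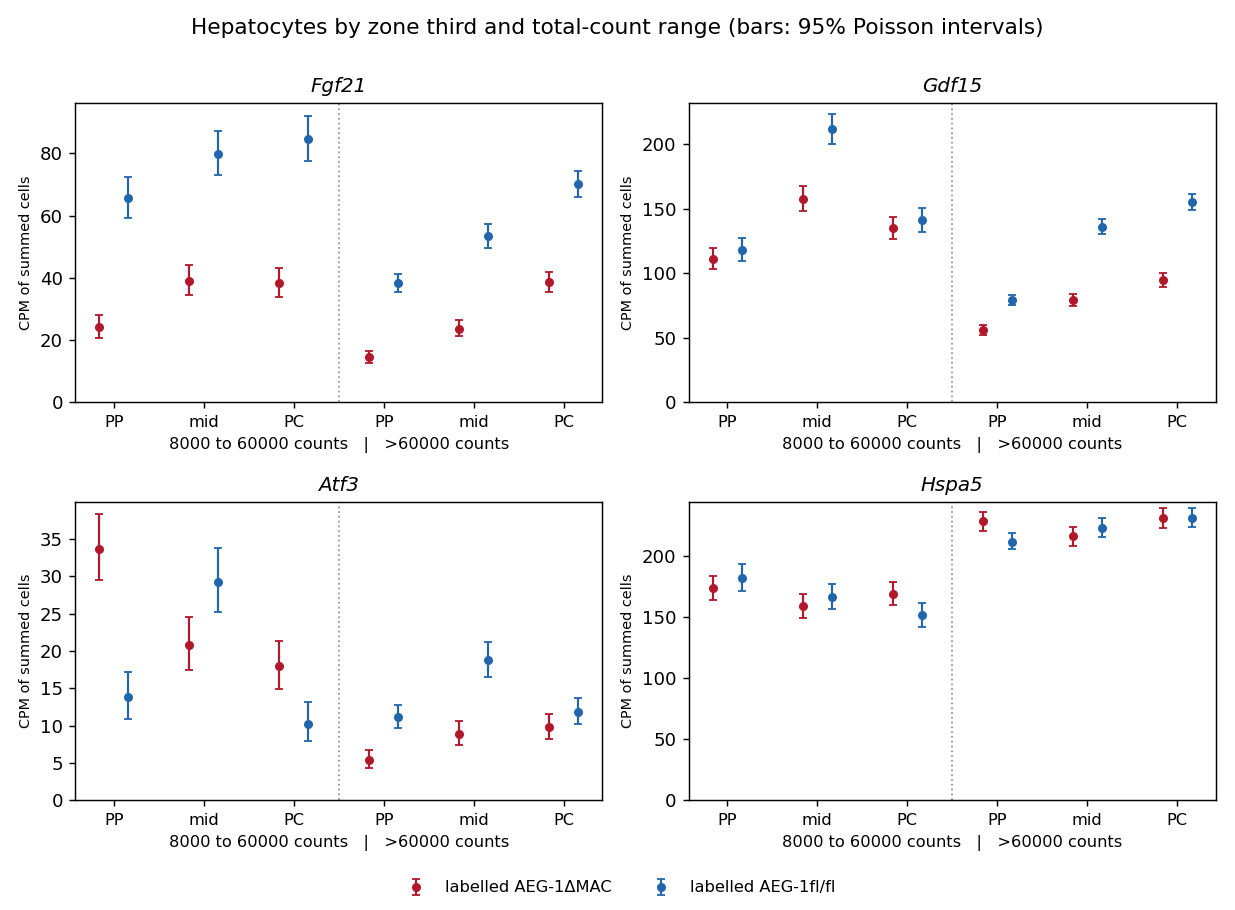
Level (CPM of the summed counts, 95% Poisson intervals) of Fgf21, Gdf15, Atf3 and Hspa5 in periportal (PP), middle (mid) and pericentral (PC) hepatocytes of 8000 to 60000 counts, left of the dotted line, and of more than 60000 counts, right of it, for the ΔMAC-labelled (red) and fl/fl-labelled (blue) library. In deeper cells Fgf21 went from 14.4 and 38.2 CPM periportally to 38.5 and 70.1 CPM pericentrally.

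The libraries were then compared within hepatocytes, where a difference between 1 library of each label cannot be assigned to myeloid AEG-1. Fgf21 was the 1 gene of the 9 past 2-fold, beside 0.88% of 11256 genes higher and 1.27% lower in the ΔMAC-labelled library. Its levels of 27.9 and 59.4 CPM gave a log2 ratio of -1.09 (-1.17 to -1.01), or -1.08 without the top cell of each library. Within the shallower range the levels were 33.8 and 77.0 CPM, and within the deeper range 25.0 and 52.7 CPM. Gdf15, at 94.9 and 130.2 CPM, had a log2 ratio of -0.46 (-0.50 to -0.41). Atf4, at 13.4 and 17.5 CPM, had a log2 ratio of -0.38 (-0.51 to -0.25), with the other sign in 1 of 13 alternatives, the middle mitochondrial tertile of shallower cells (0.34). The other 6 members lay between -0.16 (Atf3) and 0.19 (Ddit3), with Hspa5 at 0.00. The median of the 9 genes was -0.11, beside 0.02 for all genes, so across hepatocytes as a whole the difference was largest in Fgf21 and smaller in Gdf15 and Atf4. Summed pericentral markers were at 6606 and 4173 CPM in these hepatocytes, and periportal markers at 8757 and 8001 CPM. Macrophage markers were at 693 and 554 CPM and endothelial markers at 232 and 138 CPM. The part of these markers in the differences was not tested.

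The stress gene lists were also compared between the libraries in hepatocytes, beside the same 0.88% of 11256 genes higher and 1.27% lower. The median log2 ratio was 0.04 for 23 ATF4-type targets, where Asns was past 2-fold at 0.823 and 2.13 CPM. It was 0.05 for 23 IRE1-XBP1 and ATF6 targets, -0.0029 for 7 eIF2 kinases and phosphatases, and -0.15 for 12 other hepatokines, with no gene past 2-fold. Medians of -0.04 for 8 heat shock genes and -0.04 for 5 mitochondrial stress genes also came with no gene past 2-fold. Among 10 immediate early genes the median was -0.10 and Nr4a1 was past 2-fold, at 9.59 and 4.07 CPM. The 7 receptor and regulator genes of FGF21 and GDF15 with enough counts had a median of 0.02, with Ppara at 311 and 307 CPM and Mlxipl at 676 and 447 CPM. Klb, the FGF21 coreceptor, was at 23.6 and 26.6 CPM, a gene chosen after its value was seen. Gfral, the GDF15 receptor, had 0 counts in the kept cells of both libraries, where a floor of 3 counts was 0.0377 and 0.0333 CPM.

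The hepatocyte Fgf21 difference varied with mitochondrial share, a split chosen after the data were seen. Among hepatocytes of 8000 to 60000 counts, Fgf21 was at 58.5 and 171 CPM in the tertile with the lowest mitochondrial share, at 26.8 and 47.8 CPM in the middle and at 18.7 and 14.7 CPM in the highest. In that last tertile the log2 ratio was 0.35, opposite in sign to the whole class but within counting error. Gdf15 had the opposite sign there as well, at 48.8 and 32.0 CPM (log2 0.61), and Atf3 was at 13.1 and 6.31 CPM (log2 1.05, from 92 and 39 counts). In deeper hepatocytes the levels were 25.1 and 61.3 CPM, 26.1 and 58.7 CPM, and 23.6 and 30.8 CPM from the lowest to the highest share. Within the shallower range, 5 of 8 members with enough counts were past 2-fold higher in the lowest than in the highest tertile in both libraries, beside 36.2% of 6985 genes higher and 2.25% lower. They were Fgf21, Gdf15 (288 against 48.8 CPM and 354 against 32.0 CPM), Ddit3 (42.4 against 13.5 CPM and 38.9 against 10.0 CPM), Atf4 and Chac1. The members' median log2 ratio was 1.65 and 1.70, beside 0.72 and 0.73 for all genes, but this did not hold for each member. Hspa5 had ratios of -0.56 and 0.16, and in the ΔMAC-labelled library Trib3 (0.33) and Xbp1 (0.56) also lay below the median of all genes. The IRE1-XBP1 and ATF6 targets had medians of -0.18 and 0.26. Among deeper hepatocytes no member was past 2-fold in both libraries, beside 0.338% higher and 0.169% lower of 8871 genes. Hepatocyte markers also differed in the shallower range, at 62470 CPM in the lowest against 127160 CPM in the highest tertile of the ΔMAC-labelled library and 69575 against 116600 CPM in the other.

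In macrophages, the class in which the deletion is designed to act, Atf3 was the 1 gene past 2-fold of the 8 with at least 50 counts in each library. The background was 1.19% of 9066 genes higher and 1.68% lower, and the median of all genes -0.12. Atf3 levels of 75.2 and 175 CPM gave a log2 ratio of -1.22 (-1.39 to -1.05), or -1.67 (-1.88 to -1.47) without the top cell of each library. The ratio was within 2-fold with each cell weighted equally (-0.91) and with the stricter gate (-0.90). Among macrophages of at most 16000 counts the levels were 74.0 and 206 CPM. Ddit3, at 29.3 and 43.5 CPM, had a log2 ratio of -0.57 (-0.87 to -0.28), and Atf4, at 13.1 and 21.3 CPM, of -0.70 (-1.15 to -0.27). Trib3 had a ratio of 0.64 (0.13 to 1.15) from 13.6 and 8.67 CPM, levels near those that hepatocyte RNA would give. Gdf15 (log2 -0.0020) and Xbp1 (log2 -0.01) did not differ beyond counting error. The median of these 8 genes was -0.14, with 1 above and 7 below 0. Hspa5, at 207 and 237 CPM, had a log2 ratio of -0.19 (-0.31 to -0.08). Of the lists, the hepatokine Lect2 was past 2-fold, at 139 and 54.4 CPM, and the 11 hepatokines had a median of 0.63, beside 58.8% and 41.6% hepatocyte RNA in this class.

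Macrophage states were unequal between the libraries, and macrophages were therefore split, after the data were seen, at 10 counts of Gpnmb, Mmp12 and Trem2 per 10000. Above this limit were 82 and 418 macrophages and below it 285 and 435, with 62 and 280 cells within a factor of 2 of the limit. Hepatocyte markers were at 38.7% and 27.3% of their hepatocyte level above the limit and at 63.4% and 53.7% below it. The part of this hepatocyte RNA in the values below was not tested. Atf3 was at 284 and 299 CPM above the limit and at 28.4 and 60.1 CPM below it, past 2-fold between the states in both libraries, the 1 such member of 5 beside 3.81% of 3784 genes higher and 0.37% lower. Above the limit the near equality of the libraries rested on 1 cell, since without the top cells the levels were 161 and 283 CPM (log2 -0.81, -1.09 to -0.55). Below the limit the log2 ratio was -1.08, and -1.06 without the top cells. Gdf15 above the limit was at 191 and 64.6 CPM, or at 88.6 and 58.6 CPM without the top cells, and below it at 43.9 and 76.8 CPM. Ddit3 was at 60.8 and 54.8 CPM above the limit and at 22.2 and 33.0 CPM below it, so its difference between the libraries was seen in the lower state.

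A second split, also chosen after the data were seen, separated macrophages at 400 hepatocyte-marker counts per 10000. With less hepatocyte RNA, 141 and 522 macrophages held Atf3 at 222 and 283 CPM, or 124 and 268 CPM without the top cells (log2 -1.11). With more, 226 and 331 macrophages held it at 31.0 and 65.0 CPM, or 28.8 and 61.9 CPM without them (log2 -1.10). Without the top cells, Atf3 was thus lower in the ΔMAC-labelled library on both sides of each split. With them, the libraries did not differ beyond counting error above the Gpnmb limit (log2 -0.08). The splits did not make the states equal, since Gpnmb was at 1575 and 3403 CPM above its limit, at 96.6 and 197 CPM below it, at 916 and 2858 CPM with less hepatocyte RNA and at 203 and 601 CPM with more. The part of macrophage state in the Atf3 difference was not tested.

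In stellate cells Fgf21 was the 1 member past 2-fold, beside 0.481% of 8518 genes higher and 1.28% lower, at 17.7 and 72.5 CPM, or 15.7 and 33.9 CPM without the top cells, near the hepatocyte RNA level of each library. The immediate early gene Nr4a1 was also past 2-fold there, at 35.4 and 12.05 CPM. In endothelial cells no member was past 2-fold, beside 0.406% of 9355 genes higher and 1.17% lower. Endothelial Fgf21 had a log2 ratio of -0.85 and Gdf15 of -0.59, from 17.6 and 31.7 CPM and 50.7 and 76.4 CPM, the signs seen in hepatocytes. Without the top cells these ratios were -0.65 and -0.52. Endothelial Fgf21 lay below the hepatocyte RNA level of each library. Atf3 was at -0.69 (-1.14 to -0.26), Atf4 at -0.54 (-0.97 to -0.12) and Trib3 at 0.60 (0.15 to 1.06). The median of the 9 genes was 0.05, with 5 above and 4 below 0, beside -0.17 for all genes.

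**Figure D3:**
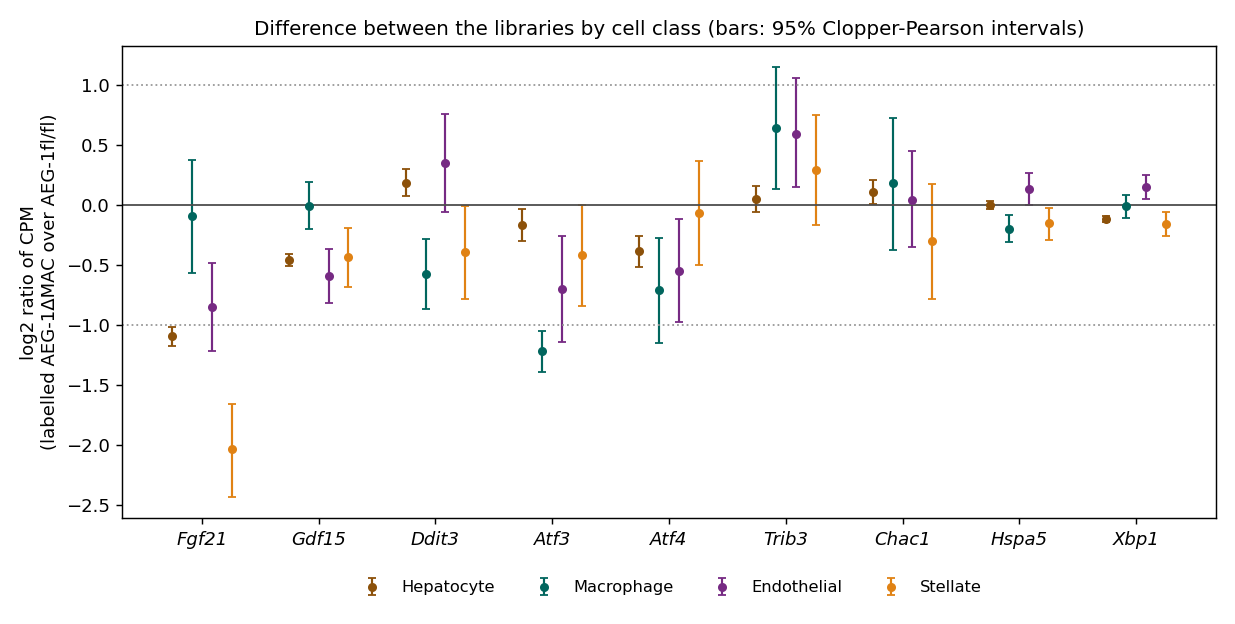
Log2 ratio of CPM, ΔMAC-labelled over fl/fl-labelled library, of each gene in hepatocytes, macrophages, endothelial cells and stellate cells, with 95% Clopper-Pearson intervals that cover counting error and dotted lines at 2-fold. Fgf21 in hepatocytes (-1.09) and stellate cells (-2.03) and Atf3 in macrophages (-1.22) lay past 2-fold.

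Genes that varied like a member were ranked by Pearson's r over 30 hepatocyte bins, centred within library, among 9639 genes. A bin held the cells of 1 library, of 1 zone tertile set over the hepatocytes of that library, and of 1 of 5 count bins with limits at 16000, 30000, 60000 and 120000 counts. The bins share library and depth and are not independent, so r is a description. Fgf21 was most like Peli2 (r = 0.832), Uvrag (0.804) and Cblb (0.798), and Gdf15 most like Agap1 (0.875), Cdadc1 (0.866) and Med15 (0.842). Ddit3 ranked with Gys1 (0.758), Wwc2 (0.753) and Wdr74 (0.729), and Atf3 with Sat1 (0.742), Casc3 (0.711) and Gdf15 (0.708). Atf4 ranked with Rrs1 (0.812), Sass6 (0.807) and Eml5 (0.791), Trib3 with Il10rb (0.703), Irf2bpl (0.679) and Hscb (0.656), and Chac1 with Ppil4 (0.811), Acox2 (0.802) and Azin1 (0.800). Hspa5 was most like Calr (0.892), Mgat2 (0.882) and Manf (0.877), of which Calr and Manf are on the list of IRE1-XBP1 and ATF6 targets. Xbp1 was most like Ece1 (0.731), Oaf (0.721) and Nectin2 (0.706). Between members, r was 0.725 for Fgf21 and Gdf15, 0.664 for Hspa5 and Xbp1, and -0.429 for Fgf21 and Hspa5, so the hepatokines varied together and apart from the chaperone gene.

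Promoters were searched over the 250 bases before each RefSeq start (GRCm38.p6), on both strands, and a match is a description, not evidence of binding. The core of the C/EBP-ATF response element (TGATGNAA), through which ATF4 and CHOP act, occurred in 3.45% of 32851 promoters and in those of 3 members. The matches read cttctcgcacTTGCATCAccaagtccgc for Atf3 (chr1:191183426-191183453), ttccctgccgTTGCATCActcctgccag for Chac1 (chr2:119351039-119351066) and gacccccccaTTGCATCAtccgtccagg for Fgf21 (chr7:45615612-45615639), each with the motif on the reverse strand of the gene. The Atf3 match lies inside the GENCODE span of the gene, upstream of the RefSeq start, as do the Hspa5 element and the Gdf15 E-box named next. The ER stress response element, which ATF6 binds with NF-Y, occurred in 0.113% of promoters and for 1 member, Hspa5, as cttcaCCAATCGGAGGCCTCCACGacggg (chr2:34772020-34772048). The cyclic AMP response half-site TGACGT (6.47% of promoters) matched at Atf3 and Hspa5, and the E-box CACGTG (6.02%), which the Mlxipl product ChREBP can bind, at Fgf21 and Gdf15.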

How the data were processed

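Single-cell libraries of fixed liver cells, 1 per genotype, were analysed. The authors deposited raw UMI counts per gene and cell, made per the labels with Cell Ranger 7.1.0 on mm10 and not normalized. CPM, log2 ratios and fold differences were computed here from the deposited counts in pandas 2.3.3 and SciPy 1.17.1 with NumPy 2.4.6 under Python 3.11.15; figures used matplotlib 3.10.9. Cells with fewer than 100 genes or over 10% mitochondrial counts were left out. A cell passed a gate when the summed markers of the class reached its limit per 10000 counts and at least 3 of them had a count. A cell past several gates joined the class with the largest ratio of marker sum to limit. Of the listed markers, 121 of 123 were in the files. Counts were summed per class and library. Levels have exact Poisson 95% intervals and ratios Clopper-Pearson intervals, checked on simulated counts. A member or listed gene counted as different past 2-fold, in both libraries for comparisons within libraries, with at least 50 counts on each side. Free hepatocyte RNA was the median ratio of 10 hepatocyte markers. The members and the 8 stress gene lists (eIF2 kinases and phosphatases, ATF4-type targets, IRE1-XBP1 and ATF6 targets, other hepatokines, FGF21 and GDF15 receptors and regulators, heat shock, immediate early, mitochondrial stress) were chosen with earlier results of these data known. Named genes were the members, list genes past 2-fold (up to 4 each way) and at most 3 others by abundance, and the 3 genes with the highest r per member. Alternatives weighted cells equally, used stricter filters and gates, median-ratio scaling, a 1.5-fold limit, other limits of range and zone, no count filter, or subtracted hepatocyte RNA. With 1 library per group no test was made. Spatial transcriptomics and the other experiments of the study were not analysed here.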

Additional observations from a re-analysis of the deposited data

Results flagged for a closer look

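Several log2 ratios had opposite signs in the libraries, and these differences were not tested. Xbp1 pericentrally over periportally, in hepatocytes of 8000 to 60000 counts, was at 0.1737 in the ΔMAC-labelled and -0.09924 in the fl/fl-labelled library. Hspa5 in the lowest over the highest mitochondrial tertile of the same range was at -0.5595 and 0.1573. Atf3 in the same contrast among deeper hepatocytes was at -0.5037 and 0.979. Gdf15 in macrophages above over below the Gpnmb limit was at 2.118 and -0.2499, and 1 cell held 88 of the 160 counts above the limit in the ΔMAC-labelled library.

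Other ratios between the libraries, ΔMAC-labelled over fl/fl-labelled, had opposite signs in the cell classes, and these differences were not tested either. Ddit3 was at 0.1873 in hepatocytes, -0.5702 in macrophages and -0.389 in stellate cells. Hspa5 was at -0.1938 in macrophages, 0.1361 in endothelial cells and -0.1509 in stellate cells. Xbp1 was at -0.1118 in hepatocytes, 0.1512 in endothelial cells and -0.1548 in stellate cells.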

How the results depend on the processing

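Of the counts of members that answer each comparison, 47 were within 1.5 times the reported count under an alternative and 11 were not; a like count can hold different genes, and counts between the libraries here took members with at least 20 counts in both together, not 50 on each side. Of the single member values, 463 stayed within their interval and 155 moved, some with a change of sign; 1 that was past 2-fold changed sign (reversed). Those within 2-fold that changed sign include Atf3 between the libraries in hepatocytes, in 7 of 13 alternatives, Atf4 in 1 of 13, and Gdf15 in 1 of 13 there and 4 of 12 in macrophages. Members highest in hepatocytes in both libraries numbered 2 (8.4% of 12279 genes); they were 6 after subtraction of hepatocyte RNA (18.5% of genes) and 4 without the top cells (10.8%). Members past 2-fold between zones in deeper hepatocytes numbered 0, but 1 (Fgf21) with the stricter cell filter, 1 (Fgf21) in quintiles and 2 (Fgf21 and Gdf15) at 1.5-fold. Fgf21 was no longer past 2-fold between the libraries, leaving 0 members, in pericentral hepatocytes (log2 -0.99) and in the middle mitochondrial tertile (-0.84). In the highest tertile its sign reversed, to 0.3470, a value within counting error. The 1 member past 2-fold there was Atf3, from 92 and 39 counts. In macrophages 0 members were past 2-fold with each cell weighted equally (Atf3 -0.91), 3 at 1.5-fold (Atf3, Atf4 and Trib3), 4 after subtraction of hepatocyte RNA (Ddit3, Atf3, Atf4 and Trib3) and 2 with little hepatocyte RNA: Fgf21, lower from 3 and 29 counts, and Gdf15, higher at 118.9 and 52.5 CPM but at 36.8 and 46.8 CPM without the top cells. The stricter gate gave 1, Fgf21 (1.04) in place of Atf3 (-0.90). The Atf3 ratio in macrophages had the same sign in the 12 alternatives, from -1.67 to -0.08. The last value, above the Gpnmb limit, was within counting error. The cause was not tested. The tertiles by mitochondrial share, the macrophage splits, the limit of 16000 counts and the values without top cells were chosen after the data were seen. No paired analysis was possible because the labels give 1 replicate per group. In macrophages, endothelial and stellate cells medians were below 8000 counts per cell and some members had fewer than 100 counts; the ΔMAC-labelled cholangiocytes were 33 cells.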

Other observations

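Cells that passed no gate and held fewer than 8000 counts, 237 in the ΔMAC-labelled and 362 in the fl/fl-labelled library, were in none of the comparisons. Fgf21 was at 28.3 and 81.3 CPM in them (61.6 CPM in the latter without 1 cell that held 26 of 105 counts) and Atf3 at 31.5 and 40.3 CPM.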
